A study of Arabidopsis thaliana with 9 samples.

Results

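Gynoecia of Arabidopsis thaliana were compared with leaves by RNA sequencing. The comparison uses 6 of the 9 libraries of the series, the 3 labelled female, which were made from gynoecia, and the 3 labelled leaf. They were chosen by their labels alone. The other 3 libraries, made from stamens, entered the fit to share its estimate of the spread and are set beside a result only where they bear on it. All 9 libraries were made from total RNA of Col-0, the standard laboratory accession, with no mutant allele and no treatment in the labels, which give neither plant age nor time of harvest. All carry the same stage label, flower bud differentiation, also the leaf libraries. The gynoecia came from immature floral buds and were whole organs, so that carpel wall, style, stigma and ovules were read together. The design text speaks of male and female gametophytes, while the tissue labels name organs.

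The gynoecium is the seed-bearing organ of the flower, formed from fused carpels that close around the ovules. Its identity is set by MADS-box transcription factors that act together on a ground state shared with leaves, and young gynoecia are still growing by cell division. A leaf, in contrast, is a photosynthetic organ exposed to microbes and herbivores, and much of its messenger RNA serves carbon fixation and defence.

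The 6 libraries held 16042169 to 18756860 counts. A count was found for 19472 to 19546 loci in the gynoecium libraries and for 18339 to 18403 in the leaf libraries. Whether the libraries of an organ came from separate plants is not in the labels, so the p-values measure only the spread between these samples, which may be technical. Libraries of 1 organ were close to each other: the biological coefficient of variation of the fit was 3.62%. Levels are given below as CPM, counts per 1000000 of the library size after TMM scaling, for replicates 1, 2 and 3 of an organ in that order or as mean ± SD (n = 3). A gene was called when its edgeR quasi-likelihood test gave, after Benjamini-Hochberg adjustment over all 20827 genes that entered it, an adjusted p under 0.05. Log2 changes are gynoecium minus leaf.

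The organ labels were checked against marker genes. The 8 gynoecium and ovule markers summed to 336 to 350.3 CPM in gynoecium libraries and to 113 to 125 CPM in leaf libraries, and 6 of the 8 (CRC, STY1, HEC1, SHP1, STK and INO) had no count in leaf. Nearly all of the leaf sum came from BEL1, which is described with the ovule genes. The 5 mesophyll markers summed to 2529.8 to 2594 CPM in gynoecia, against 58419.5 to 60667 CPM in leaves. The 4 guard cell markers summed to 17.6 to 18.9 CPM in gynoecia, against 96.4 to 100.08 CPM in leaves, and the 3 phloem markers to 16.4 to 19.1 CPM in gynoecia, against 527 to 534 CPM in leaves. The 24 stamen, tapetum and pollen genes summed to 75.1 to 83.7 CPM in gynoecia, against 8.75 to 11.5 CPM in leaves, and to 13878 to 14126 CPM in stamens. Of these 24, 12 had no count in gynoecia, among them MS1, DYT1, QRT3, DUO1 and HAP2.

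Most genes differed between the organs. Of the 20827 genes tested, 8869 were higher in gynoecia (42.6%) and 8324 were lower (40.0%), so that 82.6% were called in either direction. By at least 2-fold, 5534 were higher (26.6%) and 5336 lower (25.6%). The median log2 change of all genes was 0.00. Of the genes tested, 1499 had no count in either organ. They entered through the stamen libraries and could not be called by edgeR, which lowers the shares. Among genes with a count in both organs 88.1% were called, and in a fit of the 6 libraries alone 90.3% of 18608 genes. The shares over all genes tested are the background against which each gene list below is read. The split depends on the scaling. With library totals in place of TMM the log2 changes moved up by a median of 0.64, and 11804 genes were higher and 5731 lower, so that 67.3% of the calls were higher, against 51.6% with TMM. Genes that TMM placed below leaf by less than this shift could therefore stand above it with library totals. This is said beside those that were named and called lower. Genes not called with TMM could be called higher in the same way. In whole organs, a change in the number of cells of a type and a change in RNA per cell cannot be told apart.

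Many called genes had no count at all in 1 of the organs: 1575 of the genes that were higher had none in leaf, and 859 of those that were lower had none in gynoecium. For such genes the fold is a lower bound, computed against 3 counts per library. It takes a 0 as a true count and would not hold if counts were lost before deposit. That floor corresponds to 0.131 CPM in gynoecium libraries and 0.219 CPM in leaf libraries on average. Absent counts were more frequent than counts of 1 or 2. Of the 8616 genes at 20 CPM or more in gynoecia, 166 summed to 0 over the leaf libraries, against 12 that summed to 1 and 5 that summed to 2. Of the 8632 genes at 20 CPM or more in leaves, 131 summed to 0 over the gynoecium libraries, against 4 at 1 and 4 at 2. Some list genes, among them MYC2, RPS2 and F3H, had no count in any library of the series. Why zeros were so much more frequent was not tested, so the lower bounds below carry this limit.

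**Figure D1:**
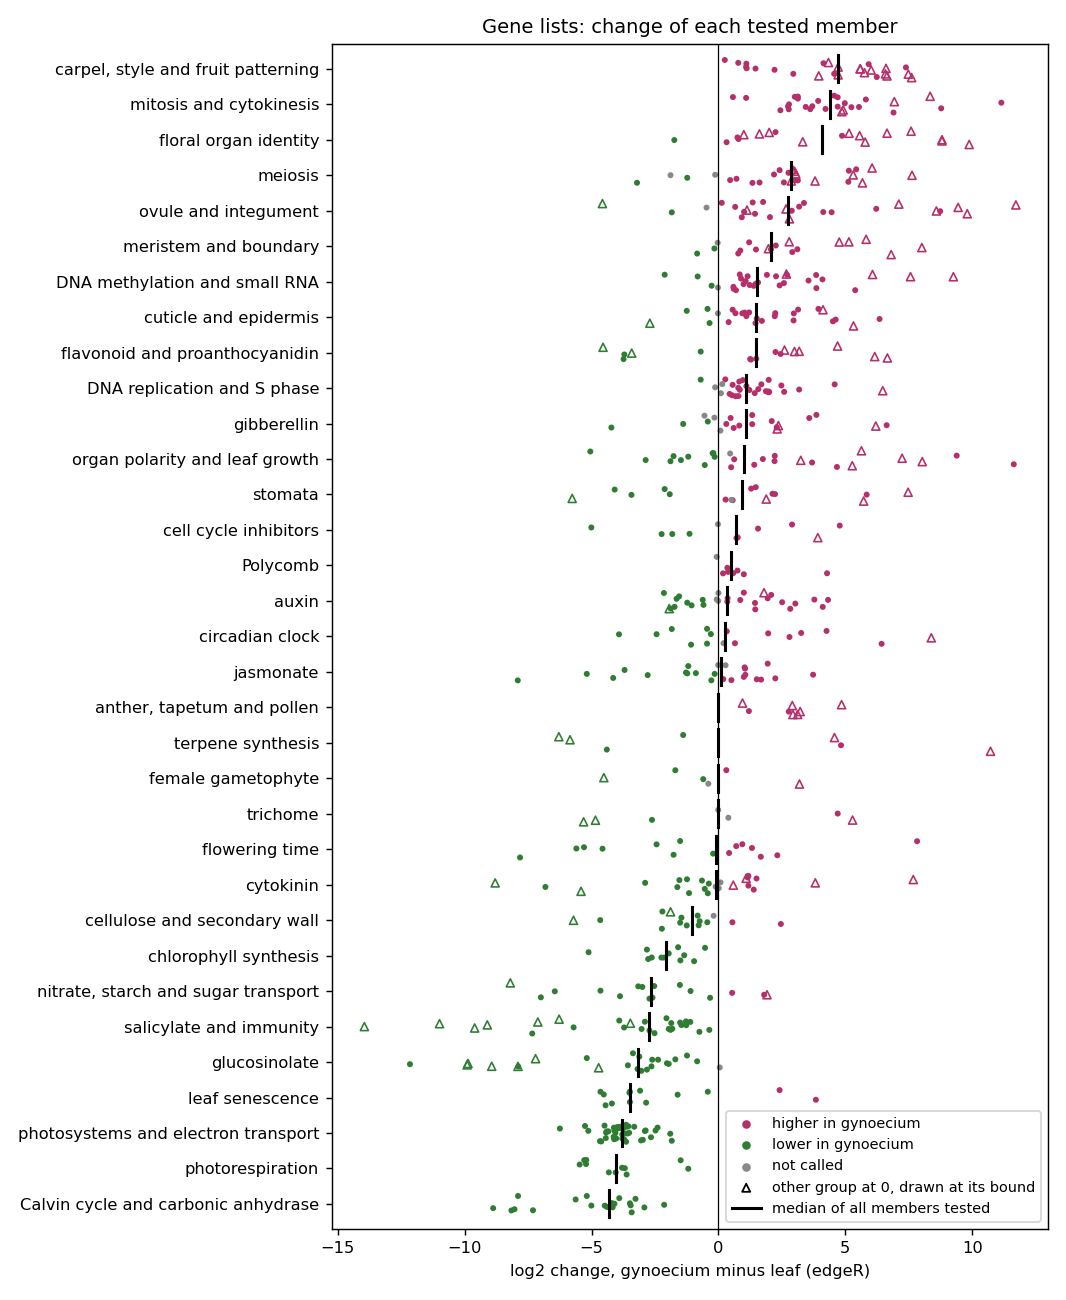
Log2 change of each tested member of the 33 gene lists, gynoecium minus leaf, with 1 row per list and the lists ordered by their median (black bar, over all members tested). Filled points are fitted changes, coloured by call. Open triangles are members with no count in the other organ, drawn at their lower bound. Members at 0 in 1 organ and at or under 3 counts per library in the other are not drawn. Carpel, mitosis and floral identity lists lie at the top, and photosynthesis lists at the bottom.

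Of 18 tested genes of floral organ identity, 17 were higher in gynoecia and 1 was lower, 14 and 1 of them by at least 2-fold (median log2 change 7.63, or 4.09 with genes at 0 in leaf at their bound, against 0.00 over all genes). AG (AT4G18960), the C-class gene that specifies carpels with its relatives, had 98.0, 99.4 and 97.2 CPM in gynoecia and no count in the 3 leaf libraries, at least 449-fold higher. STK (AT4G09960), the ovule identity gene, had 98.1, 102 and 94.1 CPM in gynoecia, again with no count in leaf. The 2 SHATTERPROOF genes, which specify the valve margin of the fruit and act with STK in ovules, had no leaf counts: SHP1 (AT3G58780) stood at 21.9 ± 1.65 CPM in gynoecia and SHP2 (AT2G42830) at 2.19 ± 0.407 CPM in gynoecia. Of the exon bases of SHP2, 56.7% lie in another gene model. The strand setting of the counting is not given in the sources used here, so reads of such overlaps cannot be assigned, and the same holds for SEP1 (35.8%), SEU (33.3%), TCP3 (82.6%), FLC (68.1%), ORC1A (36.3%) and XTH15 (31.6%) below. TT16 (AT5G23260), a B-sister gene that acts in the seed coat, stood at 10.3 ± 0.122 CPM in gynoecia, without a count in leaf.

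The SEPALLATA genes, whose proteins join the organ identity factors in complexes, did not move alike. SEP2 (AT3G02310) had 205, 213 and 202 CPM in gynoecia and none in leaf. SEP3 (AT1G24260) had 137, 132 and 122 CPM in gynoecia, against 4.13, 4.77 and 4.48 CPM in leaves, 29.2-fold higher. SEP1 (AT5G15800) was 4.76-fold higher. SEP4 (AT2G03710) was the only member of the list that was lower: it had 24.3, 24.0 and 24.2 CPM in gynoecia, against 83.9, 77.8 and 80.5 CPM in leaves, a log2 change of -1.74 (SE 0.0614, adjusted p = 4.54e-35 by edgeR). The groups did not overlap for any of these 4 genes. How many of all genes had no overlap was not counted, so non-overlap here and below does not set a gene apart.

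The B-class genes AP3 (AT3G54340) and PI (AT5G20240), which specify petals and stamens, were also counted in gynoecia, at 12 ± 0.184 and 7.75 ± 0.683 CPM, and had no count in leaf. In stamens their levels were 343 ± 0.685 and 775 ± 28.8 CPM. The stamen and pollen genes listed above were also above leaf in these gynoecium libraries, and their part in this result was not tested. SUP (AT3G23130), which limits B-class activity at the border of the inner organs, stood at 42.1 ± 2.2 CPM in gynoecia, without a count in leaf. The meristem identity genes LFY (AT5G61850) and AP1 (AT1G69120) were low, at 0.874 ± 0.218 and 0.437 ± 0.167 CPM in gynoecia, and had no count in leaf. FUL (AT5G60910), which patterns the fruit valves and is also expressed in leaves, differed little, with 123 ± 3.92 CPM in gynoecia and 98.3 ± 3.63 CPM in leaves, yet was called (1.25-fold higher, adjusted p = 4.14e-08 by edgeR).

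All 26 tested genes of carpel, style and fruit patterning were higher in gynoecia, 24 of them by at least 2-fold (median 8.16, or 4.72 at the bound). SPT (AT4G36930), a bHLH factor of the carpel margin, was low in leaf: it had 243, 235 and 232 CPM in gynoecia, against 2.75, 3.56 and 3.06 CPM in leaves, 75.4-fold higher. Its HECATE partners, which work with it in the transmitting tract and stigma, had no count in leaf. HEC1 (AT5G67060), HEC2 (AT3G50330) and HEC3 (AT5G09750) stood at 21.3 ± 1.48, 4.42 ± 0.771 and 14.2 ± 0.562 CPM in gynoecia. JAG (AT1G68480), a zinc finger gene of organ outgrowth, had 24.1, 20.9 and 20.5 CPM in gynoecia and none in leaf. The style genes of the SHI family STY1 (AT3G51060), STY2 (AT4G36260) and SRS5 (AT1G75520) stood at 42.8 ± 2.94, 21.0 ± 0.909 and 39.2 ± 0.305 CPM in gynoecia and at 0 in leaf. CRC (AT1G69180), a YABBY factor of carpel and nectary, had 10.4, 12.2 and 9.03 CPM in gynoecia and none in leaf. NTT (AT3G57670), a zinc finger factor that the transmitting tract needs, had 2042 counts in gynoecia and 7 in leaves. IND (AT4G00120), which forms the valve margin in the fruit, was low at 3.40 ± 0.683 CPM in gynoecia and had no count in leaf.

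Other members of that list differed less. The NGATHA genes of the style NGA3 (AT1G01030), NGA1 (AT2G46870) and NGA2 (AT3G61970) were 23.6-fold, 2.12-fold and 1.72-fold higher, and NGA4 (AT4G01500) had 5.76 ± 0.361 CPM in gynoecia but no leaf count. ETT (AT2G33860), an auxin response factor that sets the extent of the ovary, had 112, 113 and 125 CPM in gynoecia, against 55.8, 52.1 and 54.5 CPM in leaves. The corepressor genes LUG (AT4G32551) and SEU (AT1G43850) were 2.76-fold and 2.14-fold higher, and LUH (AT2G32700) only 1.19-fold. RPL (AT5G02030), which keeps the replum distinct in the fruit, was 4.63-fold higher. The groups did not overlap for any gene named in these paragraphs on carpel genes, a count that was not made over all genes.

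**Figure D2:**
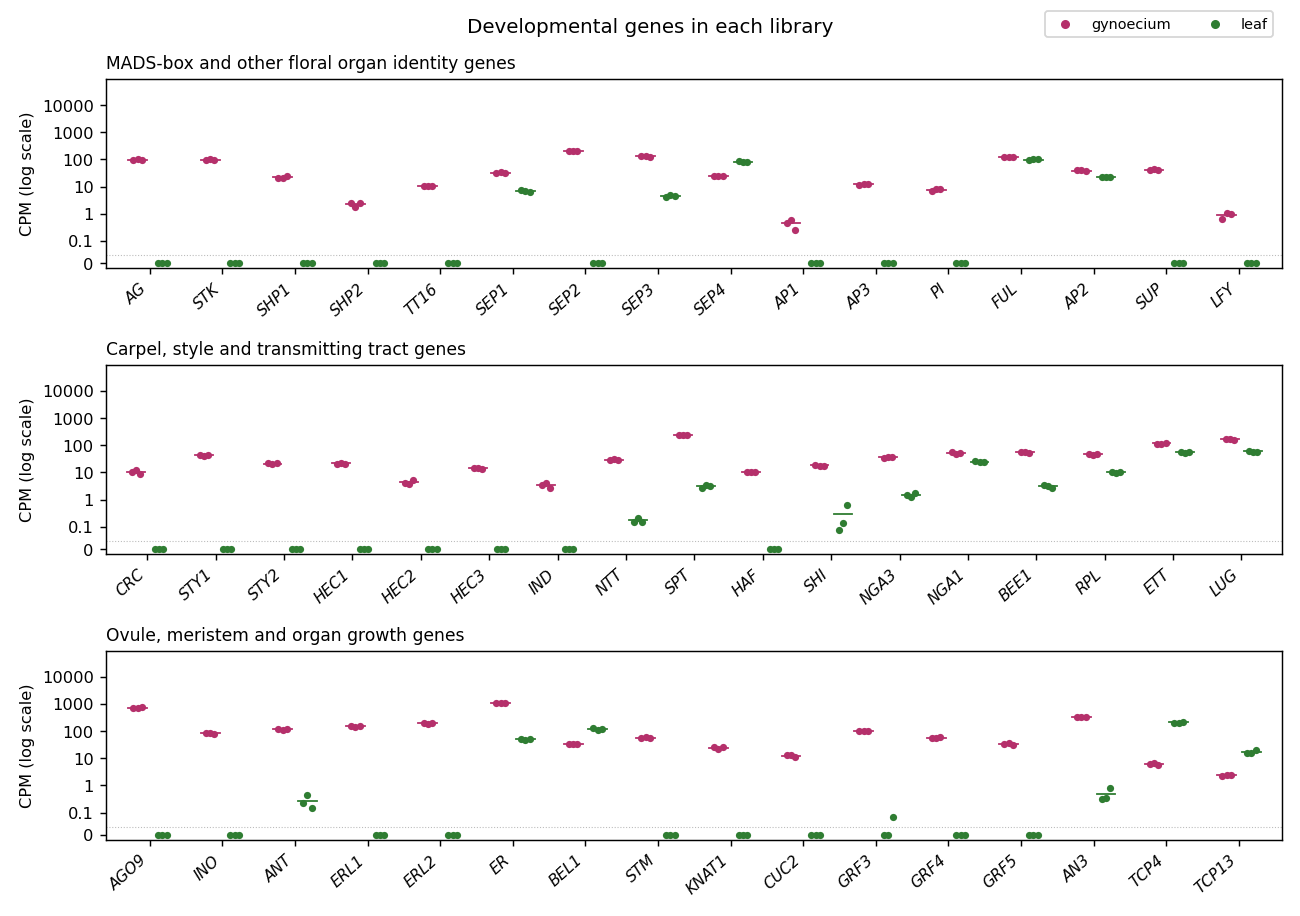
CPM (log scale, TMM-scaled) of developmental genes in each library, gynoecium left and leaf right of each gene name. Each point is 1 of 3 libraries, short bars are means, and points on the lowest line are libraries without a count. AG, STK, SEP2, CRC, STM and KNAT1 have no leaf count, while SEP4, BEL1, TCP4 and TCP13 are higher in leaf.

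Of 26 ovule and integument genes, 23 were higher, 2 lower and 1 was not called (median 3.27, or 2.73 at the bound). AGO9 (AT5G21150), an Argonaute known from the ovule, had 739.9, 739 and 743 CPM in gynoecia but no leaf count. It was at least 3380.0-fold higher. Of the genes with a symbol at 20 CPM or more, it had the largest log2 change in that direction. INO (AT1G23420), a YABBY factor of the outer integument, had 83.3, 88.4 and 81.3 CPM in gynoecia and none in leaf. ANT (AT4G37750), an AP2 factor that starts integuments and sustains organ growth, had 8111 counts in gynoecia and 11 in leaves. KAN4 (AT5G42630), which shapes the inner integument, stood at 30.2 ± 1.03 CPM in gynoecia, without a count in leaf.

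The receptor kinase gene ER (AT2G26330), which promotes organ and stem growth, was among the 10 genes with the largest difference in CPM in favour of the gynoecium: it had 1114, 1076 and 1100.3 CPM in gynoecia, against 49.2, 47.3 and 52.9 CPM in leaves, 22.0-fold higher. Its paralogs ERL1 (AT5G62230) and ERL2 (AT5G07180) had 153 ± 5.90 and 196 ± 5.69 CPM in gynoecia but no leaf count. BEL1 (AT5G41410), the homeodomain gene known for integument identity, was the other way round: 33.2, 32.7 and 33.7 CPM in gynoecia, against 125, 113 and 119 CPM in leaves, 3.58-fold lower (SE of log2 0.0529, adjusted p = 7.41e-40 by edgeR). CYP78A6 (AT2G46660), a cytochrome P450 gene of seed size, had no count in gynoecia and 3.10 ± 0.584 CPM in leaves. The class III HD-ZIP genes REV (AT5G60690), PHB (AT2G34710) and CNA (AT1G52150) were 3.39-fold, 2.72-fold and 2.54-fold higher, while PHV (AT1G30490) differed by 1.1-fold (adjusted p = 0.013 by edgeR, or 0.079 without leaf replicate 2).

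Genes of the female gametophyte, the egg-bearing generation inside the ovule, were scarcely read. Of the 22 on the list only 9 had enough counts to be tested and 8 had no count in any of the 9 libraries. Of those tested, 2 were higher, 3 lower and 4 had no call (median 0.00), against 42.6% higher and 40.0% lower over all genes. EC1.4 (AT4G39340), an egg cell gene, had 2.14, 2.18 and 1.69 CPM in gynoecia and none in leaf. AGL80 (AT5G48670), which the central cell needs, stood at 1.93 ± 0.363 CPM in gynoecia and 2.55 ± 0.0549 CPM in leaves and was not called. FER (AT3G51550), a receptor kinase of the synergid cells that vegetative cells use as well, was 1.24-fold higher. AGL62 (AT5G60440), which acts in the endosperm, had no count in gynoecia and 2.99 ± 0.264 CPM in leaves.

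Meristem and boundary genes were mostly higher, 16 of 19, with 2 lower (median 2.91, or 2.07 at the bound). STM (AT1G62360), a KNOX gene that keeps meristem cells undetermined, had 54.4, 61.4 and 54.4 CPM in gynoecia and none in leaf. KNAT1 (AT4G08150) and CUC2 (AT5G53950), of stem architecture and organ boundaries, stood at 24.6 ± 1.91 and 12.4 ± 0.958 CPM in gynoecia, without a count in leaf. WUS (AT2G17950), the stem cell organiser gene that also acts in the nucellus of ovules, was low at 1.39 ± 0.382 CPM in gynoecia and had no count in leaf. BAM1 (AT5G65700), a CLV1-related receptor gene, was 4.21-fold higher, whereas CLV1 (AT1G75820) itself averaged 50.2 ± 2.01 CPM in gynoecia, against 90.3 ± 4.78 CPM in leaves, and was 1.79-fold lower.

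Of 26 genes of organ polarity and leaf growth, 15 were higher and 10 lower (median 1.01), or 19 and 6 with library totals. Over all genes tested 42.6% were higher and 40.0% lower with TMM. The coactivator gene AN3 (AT5G28640), which prolongs cell proliferation in leaves, had 334, 342 and 318 CPM in gynoecia, against 0.306, 0.356 and 0.783 CPM in leaves. All 8 tested GROWTH-REGULATING FACTOR genes, whose proteins bind AN3, were higher. GRF4 (AT3G52910) and GRF5 (AT3G13960) had 57.3 ± 1.51 and 33.1 ± 2.43 CPM in gynoecia but no leaf count, and GRF3 (AT2G36400) had 6889 counts in gynoecia and 1 in leaf, in replicate 3 (ratio 4110.0, exact 95% interval 737 to 162000.0). Of the CINCINNATA-class TCP genes, which end proliferation in leaves, TCP4 (AT3G15030) had 6.29, 6.90 and 5.62 CPM in gynoecia, against 205, 207 and 211 CPM in leaves, 33.1-fold lower. TCP13 (AT3G02150) was 7.33-fold lower and TCP24 (AT1G30210) 2.28-fold lower. TCP2 (AT4G18390) and TCP10 (AT2G31070) were lower with TMM (log2 change -0.23 and -0.54) but not with library totals, and TCP3 (AT1G53230) was not called. The YABBY genes YAB1 (AT2G45190), YAB2 (AT1G08465) and YAB3 (AT4G00180) of abaxial organ sides were 12.9-fold, 2.66-fold and 1.53-fold higher, and YAB5 (AT2G26580) was 3.71-fold lower.

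Cell division genes were higher in gynoecia. All 28 genes tested for mitosis and cytokinesis were higher, 27 of them by at least 2-fold (median 4.39). Of 29 genes of DNA replication and S phase, 25 were higher, 15 of them by at least 2-fold, 1 was lower and 3 were not called (median 1.1). Because both lists moved, the promoters of 2 members of each are shown, with the letters bound by factors known for these phases in capitals. They are the 250 bases before the annotated gene start in RefSeq's TAIR10.1, 5′ to 3′ on the gene's strand. The mitosis-specific activator core, recognised by MYB3R factors, was searched as AACGG, and the core of E2F sites as TTCCCGC or TTGGCGC, on both strands. CYCB1;1 lies at chr4:17624309-17624558 and CYCB1;2 at chr5:1861704-1861953, both on the minus strand.
CYCB1;1: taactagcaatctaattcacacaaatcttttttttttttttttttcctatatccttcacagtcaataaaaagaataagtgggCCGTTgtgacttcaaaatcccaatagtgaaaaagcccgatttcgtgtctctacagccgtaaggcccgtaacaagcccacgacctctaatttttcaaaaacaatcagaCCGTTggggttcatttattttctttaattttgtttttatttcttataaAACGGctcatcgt
CYCB1;2: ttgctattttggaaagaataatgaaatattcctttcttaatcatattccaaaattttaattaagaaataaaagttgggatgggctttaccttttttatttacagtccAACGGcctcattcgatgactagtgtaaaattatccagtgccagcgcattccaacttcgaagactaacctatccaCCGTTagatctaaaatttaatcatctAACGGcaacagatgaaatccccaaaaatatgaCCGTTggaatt
MCM2 lies at chr1:16969964-16970213 on the plus strand and MCM5 at chr2:3527501-3527750 on the minus strand.
MCM2: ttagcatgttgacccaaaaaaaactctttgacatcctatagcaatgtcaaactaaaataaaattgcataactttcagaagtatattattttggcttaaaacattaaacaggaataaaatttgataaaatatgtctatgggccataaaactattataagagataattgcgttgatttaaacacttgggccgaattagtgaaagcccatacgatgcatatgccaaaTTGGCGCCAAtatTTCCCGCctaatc
MCM5: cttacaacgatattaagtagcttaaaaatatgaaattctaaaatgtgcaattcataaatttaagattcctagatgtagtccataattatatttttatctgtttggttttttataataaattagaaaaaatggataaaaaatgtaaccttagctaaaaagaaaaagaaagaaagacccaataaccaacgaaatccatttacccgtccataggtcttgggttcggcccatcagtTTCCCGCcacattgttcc
CYCB1;1 holds 3 copies of AACGG on either strand and CYCB1;2 holds 4. MCM2 holds 3 E2F matches, of which 2 overlap as a palindrome, and MCM5 holds 1. Of the 28 mitosis promoters, 16 (57.1%) hold AACGG, against 21.8% of the 20679 promoters of all genes tested on the nuclear chromosomes. Of the 29 replication promoters, 13 (44.8%) hold an E2F core, against 1.95% of all. These are matches of letters in 1 window and say nothing on binding.

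CYCB1;1 (AT4G37490), a B-type cyclin gene of the entry into mitosis, had 23.9, 24.8 and 24.4 CPM in gynoecia and 2 counts in all, both in leaf replicate 2, in leaves (ratio 501, exact 95% interval 139 to 4140.0). CYCB1;2 (AT5G06150) had 59.9, 59.98 and 58.1 CPM in gynoecia, against 2.83, 1.71 and 2.99 CPM in leaves. CDKB2;1 (AT1G76540), a plant-specific kinase gene of G2 and mitosis, was 18.6-fold higher and CDC20.1 (AT4G33270), which activates the anaphase-promoting complex, 56.0-fold. Genes of the spindle were higher as well. TPX2 (AT1G03780), a spindle assembly gene, had 79.1 ± 2.53 CPM in gynoecia, against 2.50 ± 0.285 CPM in leaves, and PLE (AT5G51600), a microtubule bundling gene, 67.7 ± 1.91 against 2.61 ± 0.427 CPM. AUR3 (AT2G45490), an Aurora kinase gene, and CDC20.2 (AT4G33260), the second copy of CDC20, had 26.7 ± 1.01 and 71.1 ± 5.27 CPM in gynoecia but no leaf count. The least changed of the list were MYB3R1 (AT4G32730) and MYB3R4 (AT5G11510), which encode the factors of the AACGG site, at 2.13-fold and 1.48-fold.

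MCM2 (AT1G44900), a subunit of the replicative helicase, had 126, 120.1 and 123 CPM in gynoecia, against 21.1, 20.6 and 19.5 CPM in leaves, a log2 change of 2.59 (SE 0.0603). MCM5 (AT2G07690), another subunit, had 131, 129 and 137 CPM in gynoecia, against 21.9, 22.1 and 27.0 CPM in leaves, a log2 change of 2.48 (SE 0.0582). For both, every gynoecium library was above every leaf library, which was not counted over all genes. MCM3 (AT5G46280), of the same ring, was 1.94-fold higher. CDC45 (AT3G25100), which joins the helicase to the fork, had 19.5 ± 0.933 CPM in gynoecia but no leaf count. The D-type cyclin genes CYCD3;3 (AT3G50070) and CYCD3;2 (AT5G67260), which carry growth signals into the cycle, had the next largest changes of the list, 23.8-fold and 9.06-fold. FAS2 (AT5G64630), RNR2A (AT3G23580) and CDC6 (AT2G29680) were not called, and ORC1A (AT4G14700), of the origin complex, was lower (1.79 ± 0.254 CPM in gynoecia, 2.92 ± 0.333 CPM in leaves). With library totals the call of ORC1A was lost and 28 genes of the list were higher, FAS2, RNR2A and CDC6 among them. Of 11 cell cycle inhibitors and exit genes, 6 were higher and 4 lower, against 42.6% and 40.0% of all genes tested. KRP3 (AT5G48820) had 227 counts in gynoecia and none in leaf. KRP1 (AT2G23430) had 4 counts in gynoecia, 3 of them in replicate 2, and 86 in leaves.

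Histones and kinesins, families picked by the words of their descriptions, were also mostly higher. Of 41 core and linker histone genes, 33 were higher and 4 lower (median 1.1). Of 28 kinesin genes, 20 were higher and 4 lower (median 2.90, or 2.65 at the bound). ATK5 (AT4G05190), a spindle kinesin gene, had 31.3 ± 1.3 CPM in gynoecia but no leaf count, and POK2 (AT3G19050), which positions the division plane, had 4896 counts in gynoecia and 1 in leaf, in replicate 3 (ratio 2920.0, exact 95% interval 524 to 115000.0). KAC1 (AT5G10470), a kinesin-like gene of chloroplast movement, was 6.37-fold lower.

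**Figure D3:**
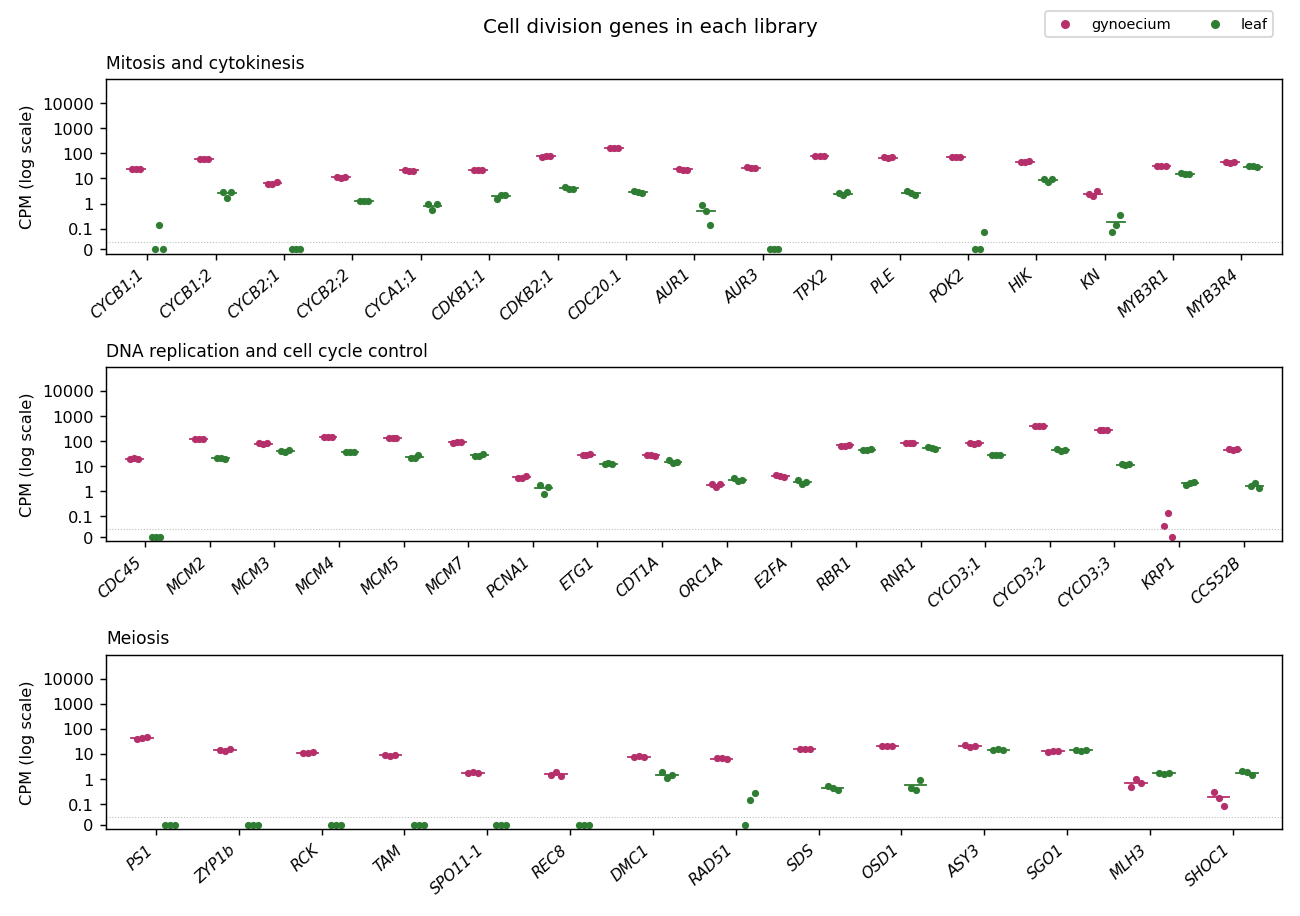
CPM (log scale, TMM-scaled) of cell division genes in each library, gynoecium left and leaf right of each gene name, with 1 point per library, means as short bars and libraries without a count on the lowest line. Mitosis genes lie above leaf throughout, most replication genes by less, and the meiosis genes MLH3 and SHOC1 lie below it.

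Of 27 meiosis genes tested, 22 were higher in gynoecia, 2 lower, while 3 had no call (median 3.13, or 2.87 at the bound). SPO11-1 (AT3G13170), whose protein makes the breaks that start recombination, had 1.72, 1.86 and 1.69 CPM in gynoecia and none in leaf. REC8 (AT5G05490), the meiotic cohesin gene, stood at 1.6 ± 0.316 CPM, also with none in leaf. DMC1 (AT3G22880), the meiotic recombinase gene, had 7.50, 8.03 and 7.87 CPM in gynoecia, against 1.91, 1.07 and 1.42 CPM in leaves. SDS (AT1G14750), a meiotic cyclin-like gene, was 35.3-fold higher. PS1 (AT1G34355), of meiotic spindle orientation, stood at 43.2 ± 2.76 CPM in gynoecia, without a count in leaf. SHOC1 (AT5G52290) and MLH3 (AT4G35520), both of crossover formation, were lower, at 0.187 ± 0.104 and 0.717 ± 0.269 CPM in gynoecia, against 1.80 ± 0.336 and 1.68 ± 0.107 CPM in leaves. The call of MLH3 was lost with library totals (log2 change -0.59, adjusted p = 0.0765 by edgeR). ASY1 (AT1G67370), of the chromosome axis, had 1 count in gynoecia and 3 in leaves and was not called. Meiosis genes are also active in anthers, and the part of the stamen genes counted in gynoecia was not tested.

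Genes of DNA methylation and small RNA were higher, 26 of 30, with 3 lower (median 1.51), or 28 and 1 with library totals. AGO9 belongs to the same family as AGO5 (AT2G27880), which had 138, 129 and 135 CPM in gynoecia but no leaf count. AGO4 (AT2G27040), the main Argonaute of RNA-directed DNA methylation, had 329, 325 and 334 CPM in gynoecia, against 30.5, 26.6 and 27.3 CPM in leaves, 11.7-fold higher, and AGO1 (AT1G48410), of the microRNA pathway, was 3.75-fold higher. RDR2 (AT4G11130), the polymerase that makes the double-stranded precursors for RNA-directed DNA methylation, stood at 41.5 ± 2.30 CPM in gynoecia, without a count in leaf. NRPD1 (AT1G63020), the large subunit of RNA polymerase IV, had 655 counts in gynoecia and 9 in leaves. The DNA methyltransferase genes CMT3 (AT1G69770), DRM2 (AT5G14620) and MET1 (AT5G49160) were 17.1-fold, 4.81-fold and 2.23-fold higher. DML3 (AT4G34060), a DNA demethylase gene, was 4.35-fold lower. DCL1 (AT1G01040), the Dicer of microRNAs, was not called with TMM (20.7 ± 0.692 CPM in gynoecia, 21.0 ± 0.819 CPM in leaves). Of 8 Polycomb genes, 7 were higher, but by a median of only 0.48. The exception in size was EMF1 (AT5G11530), which represses floral genes in vegetative tissue, at 53.7 ± 0.884 CPM in gynoecia, against 2.76 ± 0.381 CPM in leaves. Among 31 B3-domain and REM factors, 20 were higher and none was called lower, 11 not being called. Genes with no count in either organ could not be called and were not counted apart. REM1 (AT4G31610) had 87.4, 82.9 and 91.8 CPM in gynoecia but no leaf count.

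Photosynthesis genes were lower in gynoecia without exception among those tested. All 45 genes of the photosystems and electron transport were lower (median -3.80), as were all 20 of the Calvin cycle and carbonic anhydrases (median -4.30), all 11 of photorespiration (median -4.05) and all 12 of chlorophyll synthesis (median -2.06). Each of the first 3 lists was lower by at least 2-fold in every member. The photosystem genes summed to 7571 ± 208 CPM in gynoecia and 124869 ± 4000.0 CPM in leaves (SD, n = 3). Mesophyll markers belong to these lists.

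CAB1 (AT1G29930), a light-harvesting protein of photosystem II, was the gene with the largest difference in CPM: 2213, 2257 and 2119.7 CPM in gynoecia, against 48132, 50982 and 48624 CPM in leaves. It has near-identical neighbours, so its reads may be shared with CAB2 and CAB3. The 3 gynoecium libraries were all below the leaf libraries for each member of the list, a count that was not made over all genes. PSBO1 (AT5G66570) and PSBP1 (AT1G06680), of the oxygen-evolving complex, were 11.5-fold and 13.2-fold lower. PSBO2 (AT3G50820), the second copy of PSBO, fell further, to 1.44 ± 0.229 CPM in gynoecia, against 111 ± 2.33 CPM in leaves. The smallest changes were those of LHCB2 genes, with LHCB2.2 (AT2G05070) 3.58-fold lower.

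Within carbon fixation, the carbonic anhydrase genes CA2 and CA1 and the regulator gene CP12-2 (AT3G62410) changed most. CA1 (AT3G01500) had 18.9, 17.9 and 18.4 CPM in gynoecia, against 4741, 4961 and 4885 CPM in leaves, 264-fold lower, and CA2 (AT5G14740) was 472-fold and CP12-2 287-fold lower. RBCS1A (AT1G67090), a small subunit gene of Rubisco, had 179.6, 146 and 229 CPM in gynoecia, against 3794, 2696 and 3031 CPM in leaves. Its copies RBCS1B (AT5G38430) and RBCS2B (AT5G38420) were 239-fold and 158-fold lower, and reads of these near-identical genes may be shared. GAPB (AT1G42970), of the reducing step of the cycle, was 32.2-fold lower, and RCA (AT2G39730), Rubisco activase, 18.0-fold. Among photorespiration genes SHM1 (AT4G37930), the mitochondrial serine hydroxymethyltransferase, was 44.3-fold lower and CAT2 (AT4G35090), the peroxisomal catalase, only 2.28-fold. In chlorophyll synthesis PORA (AT5G54190), a light-dependent reductase gene, was 34.7-fold lower, whereas CAO (AT1G44446), which makes chlorophyll b, had a log2 change of -0.53. CAO was no longer lower with library totals.

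The chloroplast genome was read less in gynoecia as well. Its genes took 0.928, 0.935 and 0.921% of the counts of the gynoecium libraries, against 5.91, 5.86 and 5.94% of the leaf libraries. Genes of the mitochondrial genome took 0.530, 0.506 and 0.535% in gynoecia, against 0.248, 0.233 and 0.237% in leaves. For both genomes the groups did not overlap, and the 2-sided exact permutation test gave p = 0.1, the smallest that 3 against 3 libraries allow. In the edgeR fit 97 of 99 tested chloroplast genes were lower and none was higher (median -2.89), and 37 of 48 tested mitochondrial genes were higher and 2 lower (median 1.25). Of 305 ribosomal protein genes, 228 were higher and 53 lower (median 0.96). In a split by name made after the values were seen, 21 of 23 with 60S or 40S in their names were higher, while 19 of 37 with plastid, mitochondrial, 30S or 50S in their names were lower and 13 higher. Of the other 245, 194 were higher and 32 lower.

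Genes that feed and load the leaf were lower. Of 16 genes of nitrate assimilation, starch and sugar transport, 13 were lower and 3 higher (median -2.66). NIA2 (AT1G37130), the main nitrate reductase gene, had 3.48, 3.22 and 3.93 CPM in gynoecia, against 322, 296 and 316 CPM in leaves. SUC2 (AT1G22710), the phloem loading carrier, was 25.1-fold lower and SWEET12 (AT5G23660), which exports sucrose towards it, had no count in gynoecia and 38.5 ± 1.96 CPM in leaves. GBSS1 (AT1G32900), a starch synthase gene, was 3.48-fold higher. Leaf senescence genes followed with 11 of 13 lower (median -3.49), and the exceptions were SEN1 (AT4G35770) and ASN1 (AT3G47340), an asparagine synthetase gene induced by darkness, at 809, 800.4 and 789.9 CPM in gynoecia, against 52.2, 56.0 and 59.5 CPM in leaves.

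Immune genes were lower throughout the list: all 27 tested genes of salicylate signalling and immunity were called lower, 25 of them by at least 2-fold (median -2.72). ACD6 (AT4G14400), an ankyrin-repeat protein that raises salicylate signalling, had no count in the gynoecium libraries and 2134, 1991 and 2101 CPM in the leaf libraries, at least 15900.0-fold lower. Of the genes with a symbol at 20 CPM or more, it had the largest log2 change in that direction. The pathogenesis-related genes PR1 (AT2G14610) and BGL2 (AT3G57260), marks of an active salicylate response, had no count in gynoecia. PR1 stood at 96.5, 107 and 103 CPM in leaves and BGL2 at 266, 274 and 258 CPM. PR5 (AT1G75040) was 52.4-fold lower. PAD3 (AT3G26830), the last enzyme of camalexin synthesis, and FMO1 (AT1G19250), of systemic acquired resistance, had none in gynoecia and 72.1 ± 5.63 and 10.1 ± 1.15 CPM in leaves.

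PAD4 (AT3G52430) and EDS1 (AT3G48090), which act together downstream of immune receptors, were 15-fold and 2.75-fold lower, NPR1 (AT1G64280), the salicylate receptor gene, 3.52-fold, and ICS1 (AT1G74710), which makes the precursor of salicylate, 2.15-fold. FLS2 (AT5G46330), the flagellin receptor gene, had 9.08 ± 0.125 CPM in gynoecia, against 59.9 ± 4.35 CPM in leaves. BAK1 (AT4G33430), its coreceptor gene that also serves brassinosteroid signalling, was the least changed (log2 change -0.36) and was higher with library totals. Receptor families went the same way. Of 33 cysteine-rich receptor kinase genes, 28 were lower and 3 higher (median -9.26, or -5.27 at the bound). CRK6 (AT4G23140) and CRK40 (AT4G04570) had no count in gynoecia and 165 ± 2.47 and 108 ± 3.48 CPM in leaves, and reads of neighbouring copies in this family may be shared. Of 97 NBS-LRR resistance genes, 69 were lower and 14 higher (median -2.02). WRKY factors counted 30 lower and 14 higher of 52, which became 25 lower and 22 higher with library totals. WRKY54 (AT2G40750) and WRKY70 (AT3G56400), linked regulators of the salicylate response, were 162-fold and 3.89-fold lower.

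Glucosinolates are sulfur-rich defence compounds of the mustard family that myrosinases cleave when tissue is damaged. Of 24 genes tested, 23 were lower and none was called higher by edgeR with TMM (median -3.16). The methionine-derived branch was at or near 0 in gynoecia: BCAT4 (AT3G19710) and CYP79F1 (AT1G16410), of its first steps, had no count in gynoecia and stood at 125 ± 5.79 and 122 ± 4.14 CPM in leaves, and CYP83A1 (AT4G13770) had 2 counts in gynoecia and 6766 in leaves (leaf over gynoecium ratio 5670.0, exact 95% interval 1570.0 to 46800.0). MYB28 (AT5G61420), its main regulator, was 11.9-fold lower and MYB29 (AT5G07690) had none in gynoecia and 19.4 ± 2.46 CPM in leaves. In the tryptophan-derived branch CYP79B2 (AT4G39950) and CYP83B1 (AT4G31500) were 9.15-fold and 36.6-fold lower. The myrosinase genes differed from the rest of the list. TGG2 (AT5G25980) had 969.9, 964 and 979.9 CPM in gynoecia and 950.1, 935 and 927 CPM in leaves and was not called (adjusted p = 0.111 by edgeR). TGG1 (AT5G26000), another myrosinase gene, was 1.79-fold lower. TGG2 was called higher with upper quartile factors, with library totals, with limma-voom and with the 6 libraries alone. MBP2 (AT1G52030), a myrosinase-binding protein, was 49.2-fold higher, at 1134 ± 18.4 CPM in gynoecia, against 23.0 ± 2.54 CPM in leaves.

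**Figure D4:**
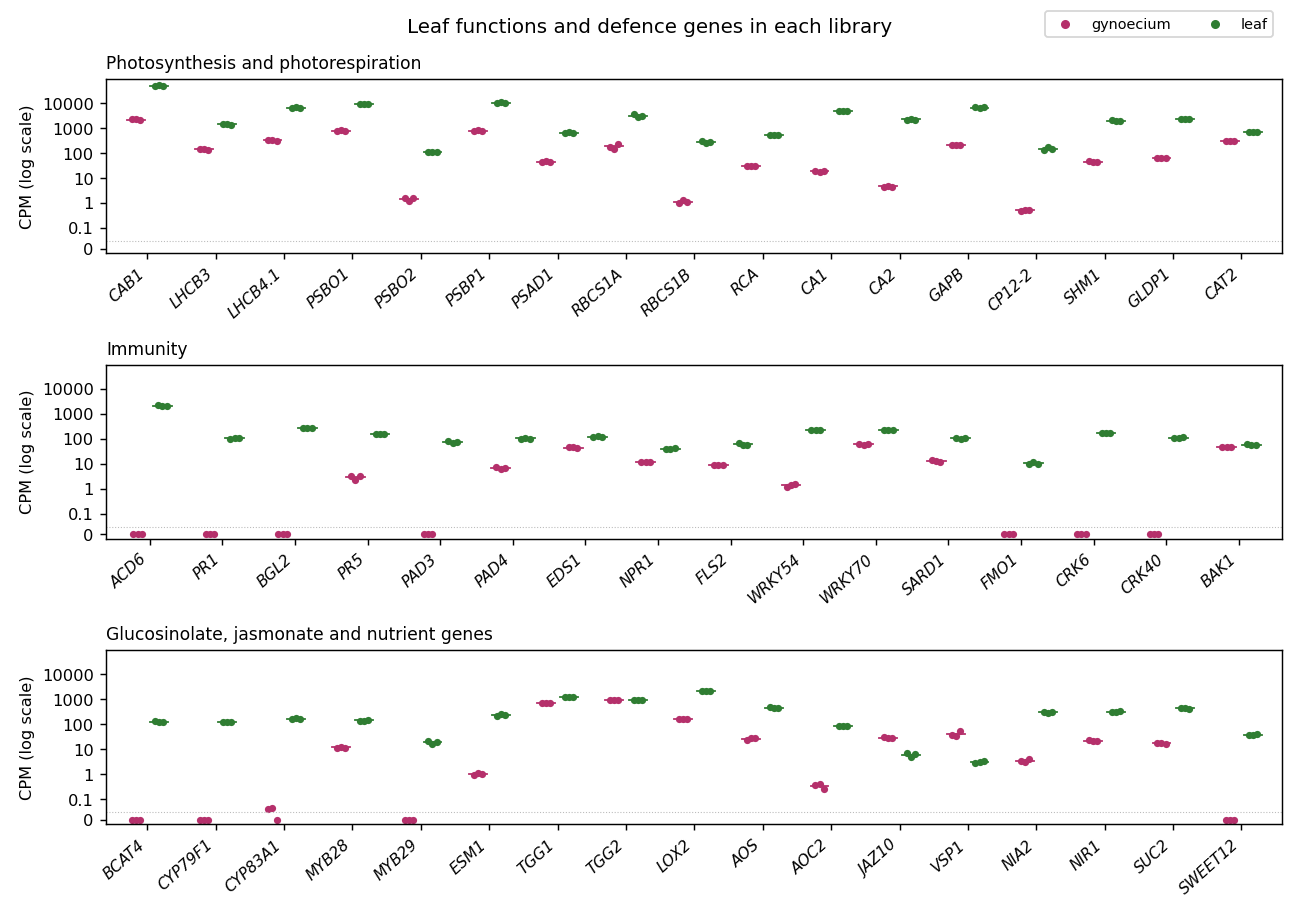
CPM (log scale, TMM-scaled) of photosynthesis, immunity, glucosinolate, jasmonate and nutrient genes in each library, gynoecium left and leaf right of each gene name, with 1 point per library, means as short bars and libraries without a count on the lowest line. Nearly all lie lower in gynoecia, ACD6, PR1 and BCAT4 without a count there, and TGG2, JAZ10 and VSP1 do not.

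Jasmonate genes counted 11 higher and 11 lower of 24 with TMM (median 0.09), and 15 higher and 9 lower with library totals (median 0.73). The list split much as all genes did with TMM, 42.6% higher and 40.0% lower. The synthesis genes LOX2 (AT3G45140), AOS (AT5G42650) and AOC2 (AT3G25770) were 13-fold, 17.8-fold and 240.0-fold lower. AOC4 (AT1G13280) was 2-fold higher, and reads of the allene oxide cyclase copies may be shared. Of the JAZ repressor genes JAZ10 (AT5G13220) and JAZ9 (AT1G70700) were 4.72-fold and 2.08-fold higher, and JAZ1 (AT1G19180) was 6.92-fold lower. VSP1 (AT5G24780), a storage protein gene that answers to jasmonate, had 35.8, 35.3 and 51.8 CPM in gynoecia, against 2.83, 3.13 and 3.27 CPM in leaves.

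Auxin genes counted 15 higher and 10 lower of 28 (median 0.35), or 18 and 7 with library totals. Over all genes tested 42.6% were higher and 40.0% lower with TMM, shares that apply to the other hormone lists here too. MP (AT1G19850), ARF6 (AT1G30330) and ARF8 (AT5G37020), activating response factors, were 13.8-fold, 4.24-fold and 7.10-fold higher. The auxin efflux carrier genes PIN3 (AT1G70940), PIN4 (AT2G01420) and PIN7 (AT1G23080) were 2.92-fold, 3.68-fold and 3.33-fold lower. TAA1 (AT1G70560), of auxin synthesis, was 17.2-fold higher. Cytokinin genes counted 9 higher and 12 lower of 25 (median -0.11), which became 14 higher and 8 lower (median 0.27) with library totals. LOG3 (AT2G37210), which releases active cytokinin, stood at 44.8 ± 1.49 CPM in gynoecia, without a count in leaf, and IPT3 (AT3G63110), of its synthesis, at 58.3 ± 2.32 CPM in leaves, without a count in gynoecia. Type-A response regulators, which respond to cytokinin and dampen it, included ARR4 (AT1G10470) and ARR16 (AT2G40670) at 7.39-fold and 113-fold lower. Gibberellin genes counted 14 higher and 3 lower of 20 (median 1.08). The DELLA repressor genes RGL2 (AT3G03450), RGA1 (AT2G01570) and RGL1 (AT1G66350) were 14.5-fold, 4.28-fold and 1.77-fold higher, and RGL3 (AT5G17490) had 1046 counts in gynoecia and 6 in leaves, 4 of them in replicate 3. GA20OX2 (AT5G51810), of gibberellin synthesis, stood at 16.1 ± 1.37 CPM in gynoecia, without a count in leaf.

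The epidermis differed in its parts. Of 26 cuticle and epidermis genes, 21 were higher and 4 lower (median 1.49). The epidermal identity genes ATML1 (AT4G21750) and PDF2 (AT4G04890) were 7.81-fold and 4.72-fold higher, and PDF1 (AT2G42840), which they control, had 1544, 1564 and 1495 CPM in gynoecia, against 0.153, 0.285 and 0.142 CPM in leaves. Within the list, genes of cutin, the polyester of the cuticle, had the largest changes. GPAT6 (AT2G38110) and the regulator gene WIN1 (AT1G15360) stood at 8.74 ± 1.45 and 3.81 ± 0.118 CPM in gynoecia, without a count in leaf. DCR (AT5G23940) had 517, 489.6 and 513 CPM in gynoecia, against 6.50, 5.98 and 6.19 CPM in leaves. ABCG13 (AT1G51460), a transporter known for petal cutin, and BDG1 (AT1G64670) were 22.9-fold and 15.3-fold higher. CUT1 (AT1G68530), which elongates wax precursors, was 2.37-fold lower. Of 16 stomatal genes, 10 were higher and 5 lower, against 42.6% and 40.0% of all genes tested. SPCH (AT5G53210), which starts the lineage, and TMM (AT1G80080), of stomatal spacing, had 11.5 ± 0.795 and 38.9 ± 0.917 CPM in gynoecia but no leaf count. Of genes known from guard cells, FAMA (AT3G24140), which completes their differentiation, had 15.2, 16.8 and 15.9 CPM in gynoecia, against 71.1, 67.8 and 69.8 CPM in leaves, the channel gene KAT1 (AT5G46240) was 10.8-fold lower, and HT1 (AT1G62400), of the carbon dioxide response, had no count in gynoecia and 7.10 ± 0.294 CPM in leaves. KAT2 (AT4G18290), another guard cell channel gene, was 4.37-fold higher. Trichome genes were few: GL2 (AT1G79840) was 6.15-fold lower, and GIS (AT3G58070) and MYB23 (AT5G40330) had none in gynoecia and 5.19 ± 1.05 and 3.76 ± 0.974 CPM in leaves, whereas EGL3 (AT1G63650) had 589 counts in gynoecia and none in leaf.

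Clock genes were called in 15 of 16, 8 higher and 7 lower (12 and 4 with library totals, median 0.26 with TMM). Over all genes tested 42.6% were higher and 40.0% lower with TMM. The labels give no time of harvest for either organ. CCA1 (AT2G46830), a MYB factor of the morning, had 75.1, 70.6 and 74.2 CPM in gynoecia but no leaf count. LHY (AT1G01060), its close relative, had 87.8, 84.5 and 86.2 CPM in gynoecia, against 0.459, 1.49 and 0.997 CPM in leaves. RVE8 (AT3G09600) and LNK2 (AT3G54500), also of the morning, were 19.2-fold and 9.60-fold higher. Of other clock genes, ELF4 (AT2G40080) had 4.23, 4.81 and 4.24 CPM in gynoecia, against 68.0, 67.3 and 66.3 CPM in leaves, PRR3 (AT5G60100) was 5.41-fold lower, FKF1 (AT1G68050) 3.58-fold and LUX (AT3G46640) 2.11-fold. TOC1 (AT5G61380) and GI (AT1G22770) each had a log2 change of -0.45 with TMM and were higher with library totals. Since CCA1 had the largest change of the list, its promoter is shown, with the core of the evening element, searched as AATATCT on both strands, in capitals. The window, again from RefSeq's TAIR10.1, is chr2:19245341-19245590 on the plus strand.
CCA1: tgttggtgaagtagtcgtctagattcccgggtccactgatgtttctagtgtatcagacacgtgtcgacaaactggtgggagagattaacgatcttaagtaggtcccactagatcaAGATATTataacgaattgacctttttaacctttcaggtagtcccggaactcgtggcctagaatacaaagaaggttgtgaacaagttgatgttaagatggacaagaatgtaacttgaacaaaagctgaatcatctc
CCA1 holds 1 match. Of the 16 clock promoters 10 (62.5%) hold the core, against 10.1% of all 20679.

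**Figure D5:**
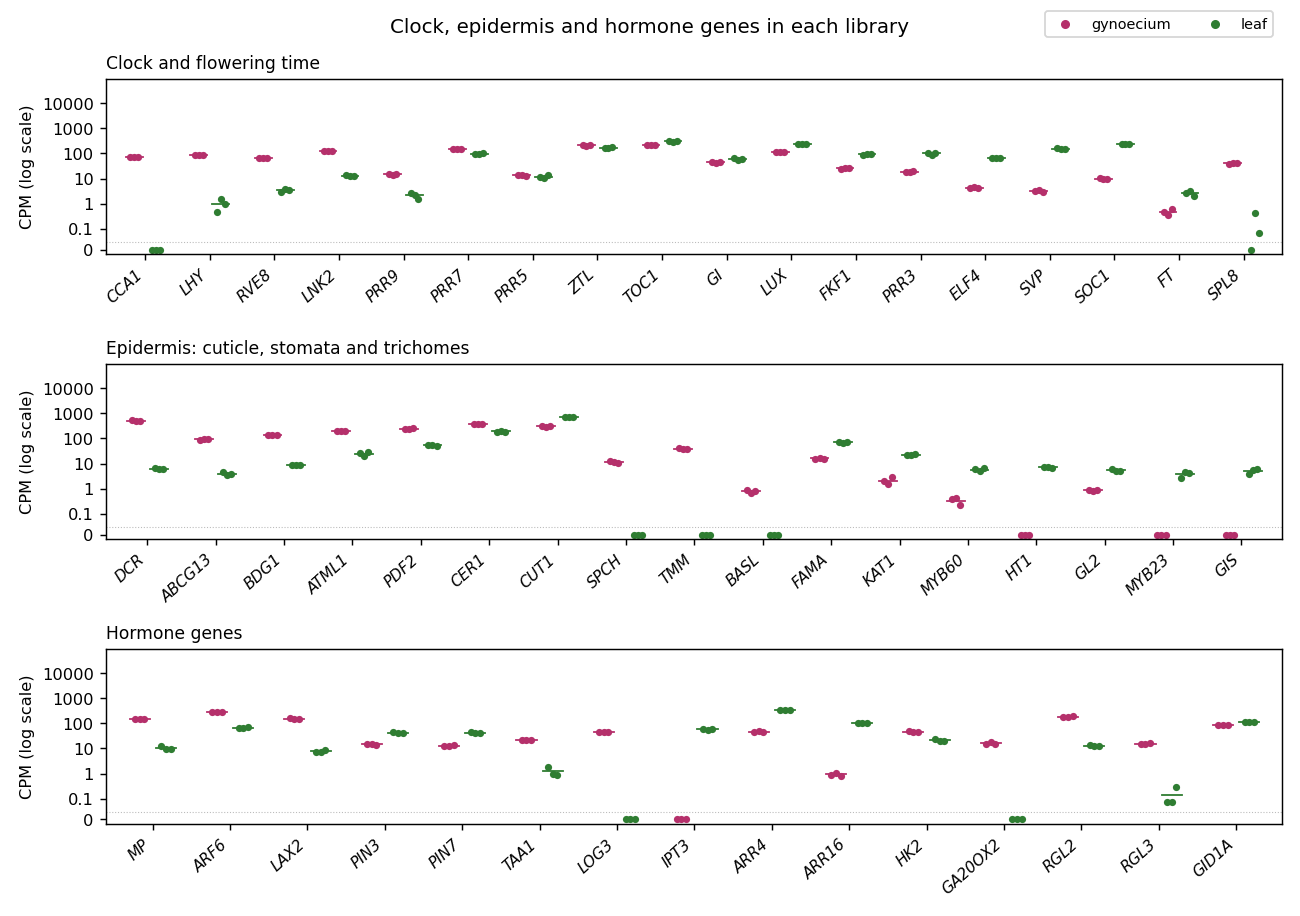
CPM (log scale, TMM-scaled) of clock, flowering time, epidermis and hormone genes in each library, gynoecium left and leaf right of each gene name, with 1 point per library, means as short bars where no library is at 0, and libraries without a count on the lowest line. Clock genes run in the panel from those higher in gynoecia (CCA1, LHY) to those lower (PRR3, ELF4).

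Flowering time genes counted 7 higher and 8 lower of 16 (median -0.86, or -0.11 at the bound), against 42.6% and 40.0% of all genes tested. SVP (AT2G22540), a MADS-box repressor of flowering, had 3.10, 3.49 and 2.85 CPM in gynoecia, against 161, 148 and 150.1 CPM in leaves. SOC1 (AT2G45660), a MADS-box promoter of flowering, had 10.2, 9.80 and 9.94 CPM in gynoecia, against 234, 241 and 239 CPM in leaves. Both were lower, with no overlap of the groups, which was not counted over all genes. FT (AT1G65480), the mobile flowering signal made in leaves, was low and 5.42-fold lower in gynoecia (0.476 ± 0.122 CPM, against 2.62 ± 0.536 CPM in leaves). FLC (AT5G10140), a repressor, had no count in gynoecia and 2 in leaf. SPL8 (AT1G02065), a factor of floral organ development, had 2787 counts in gynoecia and 7 in leaves, 6 of them in replicate 2, and SPL9 (AT2G42200), which promotes the adult phase, was 4.98-fold higher.

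Of 17 flavonoid and proanthocyanidin genes, 11 were higher and 5 lower (median 1.49). CHS (AT5G13930), the entry enzyme, had 316, 321 and 311 CPM in gynoecia, against 65.0, 68.0 and 65.9 CPM in leaves, and FLS1 (AT5G08640), of flavonol synthesis, was 5.47-fold higher with its regulator MYB111 (AT5G49330) at 2.43-fold. DFR (AT5G42800) and LDOX (AT4G22880), of the anthocyanin branch, had no count in gynoecia and 1.39 ± 0.465 and 3.06 ± 0.724 CPM in leaves, and the anthocyanin regulator PAP1 (AT1G56650) was 13.1-fold lower. Of 9 terpene genes, 3 were higher and 4 lower, a split near the 42.6% and 40.0% of all genes tested. The members named here are among those that were higher. CYP706A3 (AT5G44620), a cytochrome P450 gene of floral terpene metabolism, had 376, 369 and 366 CPM in gynoecia but no leaf count. TPS21 (AT5G23960), a sesquiterpene synthase gene known from the stigma, stood at 5.21 ± 0.764 CPM in gynoecia, without a count in leaf.

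Cell wall genes were mixed. Of 16 genes of cellulose and secondary walls, 12 were lower with TMM (median -1.04), 8 of them by at least 2-fold. With library totals 9 were lower (median -0.39). CESA1 (AT4G32410) and CESA2 (AT4G39350), which make primary wall cellulose, were 2.38-fold and 4.62-fold lower. Of 21 genes of xyloglucan endotransglucosylases, which loosen walls, 8 were higher and 11 lower with TMM (9 and 7 with library totals). Over all genes tested 42.6% were higher and 40.0% lower with TMM. XTH9 (AT4G03210) had 4084, 4248 and 3985 CPM in gynoecia, against 192, 197 and 192 CPM in leaves, and no gene had a larger difference in CPM in favour of the gynoecium. XTH15 (AT4G14130) and XTH16 (AT3G23730) were 366-fold and 19.6-fold higher, and XTH25 (AT5G57550) was 29.9-fold lower. Of 40 glutathione S-transferase genes 29 were lower (median -2.31), GSTF7 (AT1G02920), which responds to pathogens, without a count in gynoecia and at 56.2 ± 1.56 CPM in leaves.

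Several abundant genes lie outside these lists. Among the 10 genes with the largest difference in CPM in favour of the gynoecium were AT1G62500, of the lipid transfer protein superfamily, with 1017, 986 and 1018 CPM in gynoecia but no leaf count, the aquaporin gene PIP3 (AT4G35100), 6.28-fold higher, BGLU18 (AT1G52400), a beta-glucosidase gene, 7.72-fold higher, and AT3G15450, of the aluminum-induced protein family, 15-fold higher. AT5G60390, a translation elongation factor gene with near-identical copies, was 1.76-fold higher and AT1G30820, a CTP synthase gene, 37.1-fold. Among the 10 largest log2 changes of genes with a symbol at 20 CPM or more were also CEL2 (AT1G02800), a cellulase gene, HB-3 (AT2G33880), a homeobox gene, MYB17 (AT3G61250), a MYB factor of early flowers, and CYP96A15 (AT1G57750), a wax oxidase. All 4 had no count in leaf, and 340.1 ± 7.35, 206 ± 5.30, 163 ± 1.54 and 125 ± 1.90 CPM in gynoecia. On the other side CNGC11 (AT2G46440), an ion channel gene linked to immunity, had no count in gynoecia and 282 ± 14.1 CPM in leaves, and THI1 (AT5G54770), of thiamine synthesis in the chloroplast, was 11.9-fold lower. LHB1B1 (AT2G34430), a light-harvesting gene with near-identical copies, had 5.07, 6.26 and 4.54 CPM in gynoecia, against 7578, 7974 and 7505 CPM in leaves, a log2 change of -10.51, against -4.49 for CAB1.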

How the data were processed

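Total RNA from whole gynoecia, leaves and stamens was sequenced, 3 libraries per organ. The authors deposited raw read counts per gene for the 9 libraries and FPKM values (scaled by length and depth) of the same libraries. Per the submitters' processing notes, the tools included HTSeq 0.6.0, HISAT2 2.1.0, Bowtie2 2.2.3 and TopHat2, with the TAIR10 build, and no roles are assigned there. How multi-mapped reads and strand were treated is not given in the sources used here. Near-identical copies and overlapping genes are therefore uncertain.

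Counts were fitted as deposited with edgeR 4.0.16 in R 4.3.3, with TMM factors, filterByExpr by group and a robust quasi-likelihood fit of the 9 libraries. The contrast was female minus leaf, with Benjamini-Hochberg adjustment over 20827 genes. The fit was also run on simulated counts in which few genes differed between the organs. That setting is unlike these data, so it does not test the scaling. Totals were 16042169 to 18756860 counts, and 3 counts equal 0.126 to 0.229 CPM. Folds against an organ without counts are lower bounds from 3 counts per library, if a 0 is a true count. Where 1 to 3 counts were summed, the ratio has an exact 95% interval.

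Alternatives were DESeq2 1.42.0, limma 3.58.1 (voom, and log2 of the deposited FPKM plus 1 or 0.1), other size factors and filters, 6 libraries alone, a replicate block, a test against 2-fold, no organelle or overlapping genes, and each library left out. Symbols, descriptions and promoters came from RefSeq TAIR10.1, where 32548 of 32833 loci matched by locus name. Gene lists had 751 entries, of which 737 paired locus and symbol.

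Members, lists and families were chosen with earlier results of these data known. A rule picked genes to name, and the text gives a selection of these, also for small lists. Per list, it took up to 5 in each direction with the largest log2 change at 2 CPM or more and the highest gene not called. From lists with 12 or fewer members tested it took all. Per family it took up to 3 in each direction at 5 CPM or more. Over all genes it took the 10 largest log2 changes at 20 CPM or more and the 10 largest CPM differences, in each direction. The rule also held fixed marker genes. Another 77 of the 260 named genes were added for their role after their values were seen.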

Additional observations from a re-analysis of the deposited data

How the results depend on the processing

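The number of genes called ranged from 16974 to 17401 when 1 library was left out, with 8784 to 8995 higher and 8187 to 8406 lower, and 5552 to 5640 higher and 5341 to 5406 lower by at least 2-fold. The chloroplast share of counts, gynoecium minus leaf, ranged from -5.00 to -4.96 percentage points and the mitochondrial share from 0.279 to 0.293 points. Against the nuclear genes without the 10 most abundant, the chloroplast share differed by -6.01 points (-4.97 in the main analysis) and the mitochondrial share by 0.266 points (0.284). Tested against a 2-fold change, 9829 genes were called, 4930 higher and 4899 lower, which follows from the stricter null. With limma on log2(FPKM + 1), which also drops the TMM factors, 3052 genes were lower by at least 2-fold, against 3712 with log2(FPKM + 0.1) and 3776 with library totals. Leaving out genes with no count in a whole organ, an alternative chosen after seeing the data, left 16757 genes, of which 14759 were called (88.1%), 7294 higher and 7465 lower.

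Scaling decided the direction of genes near the middle. With library totals 14600 of the calls were shared in the same direction and 1229 were turned round. Among named genes, TCP2, TCP10, CAO, TOC1, GI and BAK1 had log2 changes of 0.42, 0.11, 0.12, 0.19, 0.19 and 0.29 with library totals, of 0.41, 0.10, 0.11, 0.19, 0.18 and 0.27 with limma on log2(FPKM + 1), and of 0.42, 0.11, 0.11, 0.19, 0.19 and 0.29 with limma on log2(FPKM + 0.1). With upper quartile factors 54.1% of the calls were higher. DESeq2 shared 16863 calls with the main analysis and limma-voom 16884, none in the opposite direction. In all, limma-voom called 18536 genes, 8773 higher and 9763 lower, against 8869 and 8324 in the main analysis. It counted 201 F-box genes lower, against 48, and 12 anther, tapetum and pollen genes lower, against 0. The gene lists and families gave 3266 counts of members called higher or lower under alternatives, of which 155 moved.

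The fitted fold of genes with a few counts in 1 library moved by over 1.5 times when that library was left out. On the log2 scale the change became 9.85 (7.83) for SPL8 and 11.80 (8.78) for CYCB1;1 without leaf replicate 2, and 13.84 (11.64) for GRF3, 13.34 (11.15) for POK2 and 7.56 (6.63) for RGL3 without leaf replicate 3. For KRP1 it became -6.19 (-5.01) without gynoecium replicate 2.

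The labels number the replicates of each organ alike, without saying that a number marks a shared plant or day. Deviations of same-numbered gynoecium and leaf libraries correlated at 0.0373, 0.0541 and 0.0152, so the numbers were not taken as pairs, although each gynoecium library correlated best with the leaf library of its own number. With the replicate number as a block 17099 genes were called, 17079 of them shared with the fit without the block.

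Depth limits genes near 3 counts per library, 0.131 CPM in gynoecia and 0.219 CPM in leaves. Below that, absence and low expression cannot be told apart, and intervals cover counting error only.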

Other observations

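Families picked by the words of their descriptions, and not described above, are read against the shares of all genes tested. With TMM these were 42.6% higher and 40.0% lower, and a split near them is no trait of a family. Of 58 NAC factors, 17 were higher in gynoecia and 30 lower (22 and 28 with library totals), and of 96 UDP-glycosyltransferases, 22 were higher and 56 lower (30 and 42 with library totals). Of 156 cytochrome P450 genes, 58 were higher and 81 lower with TMM (63 and 76 with library totals), against 42.6% and 40.0% of all genes tested with TMM. Heat shock and DnaJ proteins counted 66 higher and 40 lower of 123 (88 and 26 with library totals). The 338 F-box genes counted 106 higher and 48 lower (140 and 35), with 184 not called with TMM. Genes with no count in either organ could not be called and were not counted apart. Pentatricopeptide repeat proteins, which process organelle transcripts, counted 114 higher and 81 lower of 234 (157 and 46 with library totals).

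Within several families single genes stood at opposite ends. EXPA15 (AT2G03090), an expansin gene of wall loosening, was 11.3-fold higher in gynoecia, while EXPA16 (AT3G55500) had no count there and 40.0 ± 1.43 CPM in leaves. LTP6 (AT3G08770), a lipid transfer protein gene, had 378, 390.3 and 383 CPM in gynoecia, against 0.535, 0.925 and 0.854 CPM in leaves. AGP31 (AT1G28290), an arabinogalactan protein gene, was 267-fold higher, and FLA13 (AT5G44130) was 165-fold lower. The tonoplast aquaporin gene TIP2;2 (AT4G17340) had no count in gynoecia and 117 ± 5.73 CPM in leaves. ESM1 (AT3G14210), a GDSL lipase-type gene that shapes glucosinolate breakdown, was 237-fold lower. Of 39 tRNA synthetase genes, 21 were higher and 15 lower (28 and 10 with library totals), against 42.6% and 40.0% of all genes tested with TMM.

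Anther, tapetum and pollen genes were read in gynoecia at low levels: of 22 tested, 9 were higher than in leaf, none was called lower by edgeR and 13 were not called. Of the 22, 12 had no count in gynoecia, and all of these but AHA9 had none in leaf either. Genes at 0 in both organs entered the test through the stamen libraries and could not be called by edgeR. Of the 32833 loci in the count table, 12864 summed to 0 over the gynoecium libraries and 322 summed to 1, against 14050 at 0 and 248 at 1 over the leaf libraries. The excess of zeros over counts of 1 was present in both organs, and its cause was not tested.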
